A study of Mus musculus with 121 samples.

Results

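The data on 43 genes of DNA replication and S phase come from mouse fibroblasts that received high and low glucose-insulin media in different daily orders. The genes are a fixed list of replication and S-phase genes, kept where a gene reached at least 1 CPM (a gene's counts scaled to libraries of 1000000 counts) in at least 3 libraries. All 43 listed genes passed, among 13292 genes that passed in all 31053 listed. They comprise 6 subunits of the MCM helicase, 10 genes of origin licensing and firing, 8 of the sliding clamp, its loader and Okazaki fragment processing, 8 of the polymerases, primase and RPA, 5 of nucleotide supply, 3 of chromatin assembly and maintenance methylation, and 3 G1/S regulators.

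To copy its genome once per cycle, a cell loads the MCM ring onto origins in G1 with the help of ORC, CDC6 and CDT1, and starts the ring in S phase with CDC45 and the GINS complex. Primase and the polymerases then extend new strands on the PCNA clamp, FEN1 and DNA ligase I join the lagging strand, and UHRF1 and CAF-1 carry methylation and nucleosomes over to the copies. Many of these genes are targets of E2F factors and are transcribed at the G1/S boundary, so that their mRNA level is commonly used as a readout of how many cells of a culture are cycling.

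The cells were, by the study's account, an immortalized line of ear fibroblasts from knock-in mice in which luciferase is fused to the clock protein PER2. They were at expansion passage P25, and all groups shared this genotype (genotype label PER2::LUC sv). Medium was changed every 12 h for 3 daily cycles, from high to low glucose-insulin (HL), from low to high (LH), or from high to high (HH), so that HH cells met the same renewals without a change of content. By the study's account, a free-running interval of 12 h without medium cycles followed before RNA was collected. There were 6 collections, at intervals of 4 h by that account, so that the last came 20 h after the first. The RNA was sequenced from the 3′ ends of transcripts, which makes counts independent of transcript length. The labels give HL 21 libraries, LH 22 and HH 19, and each medium order and collection had 2 to 4 replicates. The study's methods speak of independent biological experiments for each condition, while the labels do not tie single libraries to cultures, so that p-values measure the spread between these libraries. No sample received constant low medium or no renewal.

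Total counts were 104912 to 11619095 per library, and all but 1 LH library of the second collection, the one of 104912 counts, held at least 2136819. For 40 of the 62 libraries the name in the sample title conflicted with the name that a deposited read summary gives to the same library number, or the number was not listed there. The conflict touched every LH library and every HL library outside the first collection, and no HH library. Groups were therefore formed by titles and, side by side, by library numbers, which leave 57 libraries, 19 of each treatment and 13198 genes, with 1 library in the fifth LH collection. Which of the 2 sources is right was not tested, and the HH results are those whose names do not conflict between them. The hours within the names conflict with the collection numbers in both sources. Collection 2 carries hour 12, as collection 5 does, and LH collections 3 and 4 carry hours 16 and 20, where HL and HH have 4 and 8. Times here follow the collection numbers, on which every slope and rhythm rests. Of 14 fibroblast markers 13 had medians above 0, from 17.3 CPM (Lum) to 15518 CPM (Col1a2), with 7002 CPM for Col1a1 and 2131 CPM for Vim. Fap was at a median of 0, and Lum, Pdgfrb (34.4 CPM), Thy1 (87.6 CPM) and Col5a1 (136 CPM) were below the endothelial marker Kdr. Medians of 0 were also found for 4 of 5 endothelial markers (all but Kdr, 177 CPM), 5 of 6 epithelial (all but Cdh1, 1.46 CPM), 3 of 4 adipocyte (all but Fabp4, 6.54 CPM) and 4 of 5 muscle markers (all but Acta1, 0.177 CPM). Of 7 macrophage and leukocyte markers Adgre1 alone had a median of 0, and the other 6 ran from 0.412 CPM (Itgam) to 6.24 CPM (Csf1r). Their highest values in a single library were far above these medians for some, as for Csf1r with 172 CPM and Ptprc with 76.3 CPM.

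The promoters of the 6 members whose decline in HH passed the test described below are shown because the E2F motif is the feature that replication promoters are known for. They run from 250 bases before to 50 bases after a RefSeq start, on the strand of the gene, in GRCm38.p6, and capitals mark an E2F-type motif. The motifs searched on both strands, with overlaps allowed, were TTTCCCGC, TTTCGCGC, TTTGGCGC and TTTGCCGC. The stretches are chr1:20820263-20820562 on the minus strand for Mcm3, chr8:75109259-75109558 on the plus strand for Mcm5, chr5:138171834-138172133 on the minus strand for Mcm7, chr7:13278576-13278875 on the plus strand for Lig1, chr17:56304063-56304362 on the plus strand for Uhrf1 and chr7:102441445-102441744 on the plus strand for Rrm1. Lig1, Mcm7 and Uhrf1 have more than 1 RefSeq start, and the start with a match is given.
Mcm3: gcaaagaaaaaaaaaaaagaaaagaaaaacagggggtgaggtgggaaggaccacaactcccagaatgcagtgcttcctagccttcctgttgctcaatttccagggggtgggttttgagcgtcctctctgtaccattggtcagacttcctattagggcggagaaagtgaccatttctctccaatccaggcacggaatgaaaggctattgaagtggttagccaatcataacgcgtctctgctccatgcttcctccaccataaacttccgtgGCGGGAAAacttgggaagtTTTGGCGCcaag
Mcm5: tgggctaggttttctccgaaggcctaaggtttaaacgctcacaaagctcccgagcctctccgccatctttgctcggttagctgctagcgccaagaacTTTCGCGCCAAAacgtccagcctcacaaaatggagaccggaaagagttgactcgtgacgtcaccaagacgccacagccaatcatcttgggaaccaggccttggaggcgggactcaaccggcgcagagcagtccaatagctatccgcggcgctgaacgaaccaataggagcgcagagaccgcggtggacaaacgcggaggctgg
Mcm7: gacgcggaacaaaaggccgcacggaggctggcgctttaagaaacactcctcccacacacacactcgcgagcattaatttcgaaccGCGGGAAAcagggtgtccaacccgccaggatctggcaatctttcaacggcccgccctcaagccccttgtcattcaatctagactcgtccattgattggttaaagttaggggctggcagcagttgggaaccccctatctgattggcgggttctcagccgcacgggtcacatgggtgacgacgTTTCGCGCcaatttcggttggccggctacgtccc
Lig1: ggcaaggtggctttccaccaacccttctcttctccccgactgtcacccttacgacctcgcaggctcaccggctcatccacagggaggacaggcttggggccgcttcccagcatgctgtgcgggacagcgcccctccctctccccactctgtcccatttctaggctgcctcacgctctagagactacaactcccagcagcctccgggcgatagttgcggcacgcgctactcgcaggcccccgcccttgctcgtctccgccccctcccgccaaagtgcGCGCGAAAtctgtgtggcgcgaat
Uhrf1: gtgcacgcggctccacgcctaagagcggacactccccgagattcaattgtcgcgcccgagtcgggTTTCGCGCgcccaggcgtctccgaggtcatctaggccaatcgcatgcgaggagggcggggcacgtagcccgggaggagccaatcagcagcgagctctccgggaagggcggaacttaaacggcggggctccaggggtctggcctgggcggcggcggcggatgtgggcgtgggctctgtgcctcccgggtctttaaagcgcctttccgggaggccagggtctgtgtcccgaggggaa
Rrm1: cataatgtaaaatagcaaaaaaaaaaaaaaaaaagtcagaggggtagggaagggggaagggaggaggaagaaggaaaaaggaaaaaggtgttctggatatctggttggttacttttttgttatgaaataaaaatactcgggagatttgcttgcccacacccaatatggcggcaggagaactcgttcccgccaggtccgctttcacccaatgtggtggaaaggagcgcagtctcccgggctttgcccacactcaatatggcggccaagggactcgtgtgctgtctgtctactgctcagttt

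The 3 MCM promoters each held 2 matches, which overlapped in Mcm5, Lig1 and Uhrf1 held 1 each, and these letters were not in the window of Rrm1. Of the 43 members 35 had a promoter entry, and 13 of these (37.1%) held at least 1 of the motifs, beside 704 of all 27025 genes with a promoter entry. Mcm6, Orc1, Rfc3, Pold1, Gins3, Cdt1, Cdc6 and Pola1 were the others. For comparison, the CCAAT box stood in 60.0% of the member promoters and 41.1% of all genes, and the letters TTTGAA, the core of the CHR element of mitotic genes, in 11.4% and 20.2%. A match describes the sequence and not binding, and no binding was measured here.

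The level of the members spanned a wide range. Mcm7 was the highest with a mean of 121 CPM over the 62 libraries, followed by Rfc1, the large subunit of the clamp loader, with 104 CPM, and Lig1, the ligase that seals Okazaki fragments, with 88.9 CPM. Rrm1, the large subunit of ribonucleotide reductase, had 44.9 CPM, Rpa1, which coats single-stranded DNA, 39.7 CPM, E2f1, the transcription factor, 24.4 CPM, Gins4 24.4 CPM and Chaf1a, of the CAF-1 nucleosome assembly complex, 21.7 CPM, and except for Lig1 each gene named here was the highest of its role. Subunits of 1 complex were not at equal levels: the 6 MCM subunits ran from 10.8 CPM (Mcm6) to 121 CPM. The origin genes included the lowest members, with Orc1 at 0.423 CPM and Gins1 at 1.31 CPM, so that a library of median depth (5825881 counts) held only a few counts of them.

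In HH the names do not conflict between the sources. There the summed level of the replication genes was highest at the first collection and lowest at the last, which did not hold for every single gene. The 43 genes together made up 1132, 1171, 1018 and 1280 CPM in the 4 libraries of the first collection and 838, 715, 563 and 738 CPM in the 4 of the last, and every first library was above every last one. The means over the 6 collections were 1150 ± 108 (SD, n = 4), 951 ± 50.8 (n = 3), 968 ± 68.8 (n = 3), 771 ± 6.20 (n = 2), 767 ± 56.7 (n = 3) and 714 ± 114 CPM (n = 4). The level thus went down in steps and did not return towards its start within the 20 h. In bulk RNA fewer cycling cells and less of this RNA per cell cannot be told apart.

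**Figure D1:**
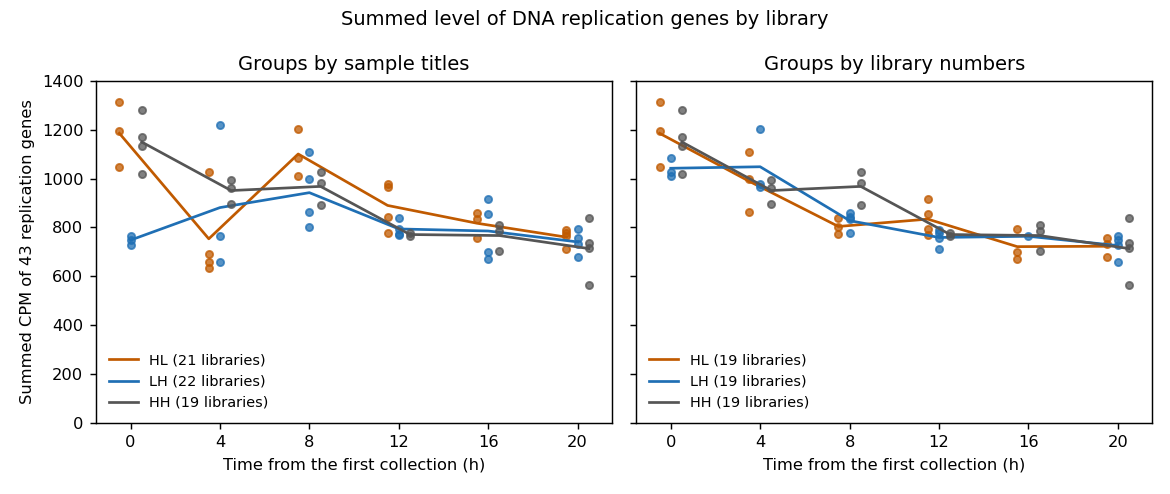
Summed CPM of the 43 replication genes (y axis) against time from the first collection in h (x axis), with groups by sample titles on the left and by library numbers on the right; points are libraries and lines join collection means. HH goes from a mean of 1150 to 714 CPM, LH by titles starts at 748 CPM, and by library numbers the 3 treatments start between 1043 and 1186 CPM and end between 714 and 726 CPM.

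The decline was tested gene by gene with a slope over the 6 collections in each treatment, given as the log2 change from the first to the last collection (edgeR's quasi-likelihood test over all genes, Benjamini-Hochberg adjusted p). This test was added after the data had been seen. In HH 6 members fell and none rose, while 0.301% of all genes tested fell. Of the 43 slopes 40 were negative, 24 of these at an unadjusted p under 0.05 (5.12% of all genes were lower at that level), and the median over the members was -0.69 on the log2 scale, beside 0.03 over all genes. Without collection 2, whose hour conflicts, 9 members fell in HH, the same 6 with Ccne2, Rpa2 and Tk1 (0.738% of genes), and the median was -0.73. The 3 members with a positive slope over all collections were Orc6 (0.15 ± 0.20, SE), Pola2 (0.04 ± 0.42) and Rfc1 (0.02 ± 0.25), none past the test.

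Rrm1, which makes deoxyribonucleotides, was at 55.0, 67.7, 62.7 and 82.0 CPM in the 4 HH libraries of the first collection and at 35.3, 30.9, 24.1 and 31.6 CPM in those of the last. The groups did not overlap, with collection means in between of 53.4, 54.7, 42.1 and 37.9 CPM. It fell by 1.03 ± 0.17 (SE) on the log2 scale (edgeR adjusted p = 0.000506), the smallest adjusted p of a member slope in HH by titles, and also passed edgeR's test for any difference among the 6 HH collections (edgeR adjusted p = 0.0114, 0.293% of genes called, and 18 members at an unadjusted p under 0.05 beside 8.61% of genes). That second call ended when any 1 of the 4 HH replicates was left out, while DESeq2 called 5 members, Rrm1 among them, and 9 members passed without the filter on low counts. The shares of all genes under these alternatives are not given here, so the 5 and 9 have no such comparison.

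Mcm7 had 181, 189, 139 and 197 CPM at the first collection and 97.0, 63.3, 46.4 and 119 CPM at the last. Mcm3 had 45.8, 42.6, 30.7 and 53.6 CPM, against 22.1, 16.4, 19.2 and 17.1 CPM. In both helicase subunits every first library was above every last one, and they fell by 0.94 ± 0.18 (adjusted p = 0.00688) and 1.13 ± 0.23 (adjusted p = 0.00925) on the log2 scale. Mcm5, another subunit of the ring, had 28.5, 25.4, 15.5 and 41.9 CPM at first and 15.2, 6.94, 3.42 and 7.84 CPM at last. Its lowest first library was barely above its highest last one, and it fell by 1.58 ± 0.38 (adjusted p = 0.0295).

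Lig1 was at 127, 137, 101 and 160 CPM and then at 80.9, 78.7, 43.4 and 77.1 CPM. Most of its decline lay between collection 3 (mean 104 CPM) and collection 4 (71.7 CPM), and it fell by 0.93 ± 0.23 on the log2 scale (edgeR adjusted p = 0.0329). Uhrf1, which guides maintenance methylation to new DNA, had 13.2, 9.01, 10.3 and 14.6 CPM at first and 2.51, 4.63, 1.28 and 4.56 CPM at last. It had the largest change of the 6 with a fall of 1.68 ± 0.42 (adjusted p = 0.0427), at the lowest level of the 6.

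**Figure D2:**
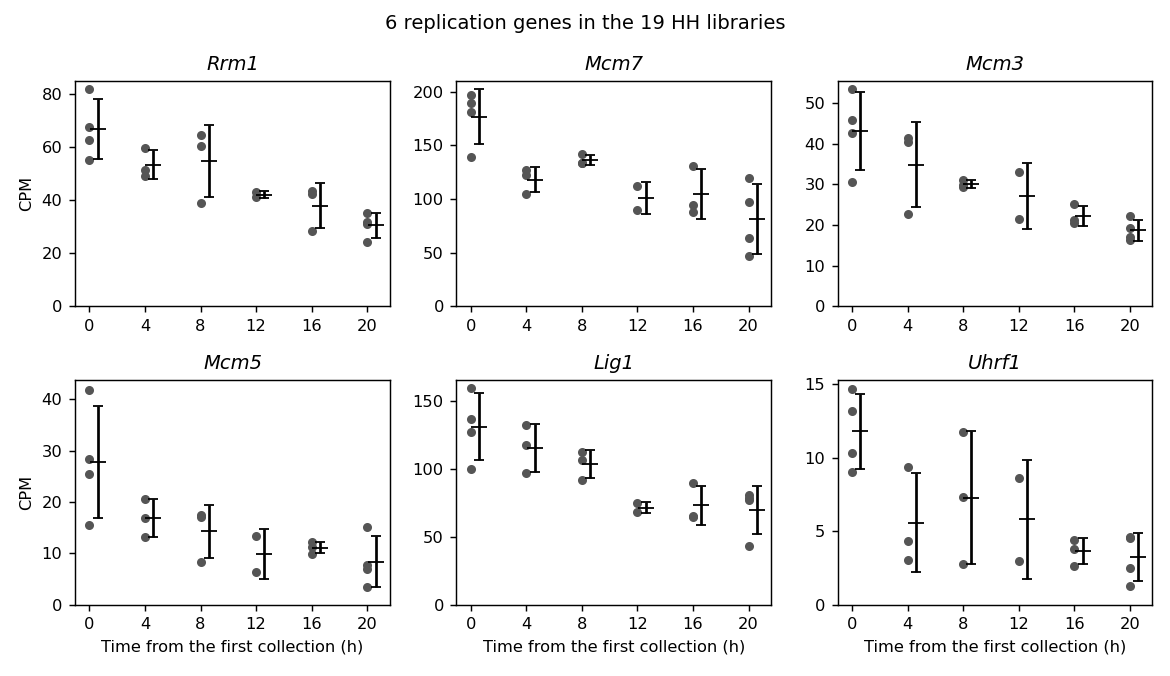
CPM (y axes, each from 0) of Rrm1, Mcm7, Mcm3, Mcm5, Lig1 and Uhrf1 in the 19 HH libraries against time from the first collection in h (x axis). Points are libraries, and the dash with bars beside them is the mean and SD of the collection. In each of the 6 genes all 4 first libraries lie above all 4 last ones, as for Rrm1 with a mean of 66.9 against 30.5 CPM.

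Over all members, every HH library of the first collection was above every one of the last in 18 of 43 genes, beside 4.79% of all genes, and the reverse held for no member (1.86% of genes). Leaving out 1 HH replicate at a time brought the members that fell to between 1 and 2, with Rrm1 in each. Markers moved with the decline. The sum of the 14 fibroblast markers went from 36300 to 42826 CPM in the first HH libraries to 22129 to 35397 CPM in the last, and 10 of the 14 had negative slopes. By titles none of them passed the adjusted test in edgeR or DESeq2 and 3 had an unadjusted p under 0.05, 2 of them lower, while by numbers Col1a1 fell (0.77 ± 0.16, adjusted p = 0.0047). The sum of the macrophage and leukocyte markers went from 13.5 to 20.8 CPM to 20.4 to 27.6 CPM, with positive slopes in all 6 of its markers that were tested and a median of 0.43, 1 of them (Cd14) at an unadjusted p under 0.05. Fabp4, the fatty acid binding protein of adipocytes and the only adipocyte marker tested, had a slope of 1.11 ± 0.38 (SE, edgeR adjusted p = 0.18) by titles and rose by 1.12 ± 0.28 (adjusted p = 0.0248) by numbers, with Adipoq, Plin1 and Lep at a median of 0. The part of these markers in the result was not tested.

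By role, the HH slopes are given as a description, since no role was tested against another. All 3 genes of chromatin assembly and methylation had slopes at an unadjusted p under 0.05, with a median log2 change of -1.45. Besides Uhrf1, Chaf1b had a slope of -1.45 ± 0.47 and Chaf1a of -0.85 ± 0.33. Of the 6 MCM subunits 5 reached that level, with a median of -0.85, and Mcm4, the sixth, had -0.40 ± 0.24. Of nucleotide supply 4 of 5 did so, including Tk1, thymidine kinase 1 of the salvage route, with -1.55 ± 0.49, and Rrm2, the small reductase subunit, with -0.85 ± 0.37. Tyms, thymidylate synthase, had -0.26 ± 0.27.

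The clamp group held 4 of 8 at this level, Lig1, Rfc2, Rfc5 and Rfc3, with a median of -0.51. Pcna, the clamp itself, went from 24.4 ± 4.88 CPM to 15.6 ± 6.45 CPM (SD, n = 4 each) with a slope of -0.61 ± 0.33 that did not pass. Polymerases, primase and RPA held 4 of 8 and a median of -0.48, with the lowest slope in Pole, the catalytic subunit of the leading strand polymerase (-1.69 ± 0.50), next to a near level Rpa1 (-0.18 ± 0.18). Origin licensing and firing had a median of -0.74 with 3 of 10 at that level, Cdt1, Mcm10 and Orc1, and none past the adjusted test. Slopes of its sparse genes had wide errors, as for Orc1 with -2.31 ± 1.12. Of the G1/S regulators, Ccne2 (cyclin E2) had -1.40 ± 0.40, Ccne1 (cyclin E1) -0.67 ± 0.36 and E2f1 -0.25 ± 0.15.

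In HL by titles, the first collection was again the highest, but the course was not a steady one. The summed level had means of 1186 ± 134 (SD, n = 3), 754 ± 185 (n = 4), 1101 ± 96.5 (n = 3), 890 ± 97.1 (n = 4), 817 ± 52.3 (n = 3) and 760 ± 34.6 CPM (n = 4), with a low collection 2 and a high collection 3. No member fell or rose over time by edgeR's adjusted test, nor by DESeq2, while 0.0226% of all genes fell. Of the 43 slopes 39 were negative, 14 at an unadjusted p under 0.05 (3.29% of genes), and the median was -0.45, beside -0.02 over all genes. Every first library was above every last one in 20 members, beside 6.61% of all genes, and below every last one in 2, Gins3 and Chaf1b, beside 1.44%. Without collection 2, the low one whose hour conflicts, 5 members fell in HL, Ccne2, Dut, Lig1, Rfc2 and Uhrf1 (0.277% of genes), with a median of -0.77.

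In LH by titles, the level began low. The first 3 libraries had 765, 751 and 729 CPM in sum, below all 4 HH (1018 to 1280 CPM) and all 3 HL libraries (1048 to 1315 CPM) of the same collection. It was at 882 ± 298 (SD, n = 3), 943 ± 138 (n = 4), 794 ± 32.8 (n = 4), 786 ± 119 (n = 4) and 741 ± 48.9 CPM (n = 4) afterwards. The mean of collection 2 (882 CPM) includes the library of 104912 counts, which had 1220 CPM, and without it that mean was 712 ± 75.3 CPM (n = 2), below the first collection (748 CPM). Here 28 slopes were negative with a median of -0.08, beside -0.02 over all genes, and 0 members fell or rose by edgeR's adjusted test, 0 by DESeq2 and 0 at an unadjusted p under 0.05, with 0% of genes called and 2.5% lower at the unadjusted level. Every first library was above every last one in 0 members (4.91% of genes) and below in 1, Ccne1 (2.81%). Without collections 2, 3 and 4, whose hours conflict, 0 members fell (0% of genes), 1 (Mcm5) had an unadjusted p under 0.05, and the median turned to 0.13. Of the 6 macrophage and leukocyte markers tested, 3 (Csf1r, Ptprc and Tyrobp) passed edgeR's test for any difference among the LH collections by titles. There 2.93% of genes were called, and 0 of the 14 fibroblast markers. The part of such markers in the LH levels was not tested.

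By library numbers, HL and LH each had a decline like that of HH in size. The HL means of the summed level were 1186, 990, 804, 834, 722 and 723 CPM, and the LH means 1043, 1049, 828, 759, 764 and 726 CPM, where the fifth LH collection was 1 library. In HL 10 members fell (0.538% of genes fell) with a median log2 change of -0.80, in LH 9 (1.08%) with -0.62, and in HH 11 (0.727%) with -0.69. None rose past the adjusted test in any of the 3. The HH libraries were the same in both assignments, and why the HH count differed between them was not tested. Every first library was above every last one in 26 members in HL (9.33% of genes), in 19 in LH (7.54%) and in 18 in HH (4.82%), and below every last one in no member (7.26%, 3.97% and 1.86% of genes). Without the collections whose hours conflict, 6 members fell in HL (0.318% of genes), 2 in LH (0.325%), which were Mcm5 and Ccne1, and 8 in HH (0.635%). Single replicates carried much of these counts. In HL the members that fell numbered 3 without HL replicate 1 and 1 (Tk1) without HL replicate 2 or 3, and in LH 3 (Mcm5, Tk1 and Uhrf1) without its replicate 4. The HH count was 6 when the first replicate was left out and 7 when any of the others was.

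Markers moved with the decline by numbers as well. The mean fibroblast marker sum went from 40820 to 29379 CPM in HL and from 41654 to 30327 CPM in LH, and of the 14 markers Col1a1, the collagen I chain, fell in HL, LH and HH (0.91 ± 0.18, 0.89 ± 0.18 and 0.77 ± 0.16), Fbln2 fell in HL (0.82 ± 0.21) and Col3a1 in LH (0.78 ± 0.23). Of the 6 macrophage and leukocyte markers tested, 3 had positive slopes in HL and 5 in LH, with medians of 0.01 and 0.51 and none past the adjusted test in edgeR or DESeq2, and 2 in each had an unadjusted p under 0.05. Their summed level had a mean of 17.2 CPM in the first HL libraries and of 17.2 CPM in the last, and in LH it ran from 14.9 to 16.4 CPM at first and from 9.95 to 51.2 CPM at last. Fabp4 had slopes of 0.69 ± 0.33 in HL (adjusted p = 0.535) and 0.88 ± 0.32 in LH (adjusted p = 0.114). The part of these markers in the result was not tested.

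By numbers 5 genes fell in all 3 treatments, which were Mcm5, Lig1, Uhrf1, Tk1 and Ccne2. Tk1 had the largest change of the 5 in HL and LH, while in HH Uhrf1 (-1.68) and Mcm5 (-1.58) had larger ones. In HL the 3 first libraries of Tk1 had 9.09, 14.2 and 10.6 CPM and its 3 last ones 1.09, 1.73 and 2.27 CPM, without overlap. It fell by 2.66 ± 0.45 (SE) on the log2 scale in HL (edgeR adjusted p = 0.000353), by 1.98 ± 0.42 in LH (adjusted p = 0.00397) and by 1.55 ± 0.37 in HH (adjusted p = 0.0133).

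Mcm5 in LH by numbers had 22.7, 32.5 and 38.7 CPM at first and 7.02, 6.43, 5.27 and 6.92 CPM at last. By titles, 3 of those 4 last libraries are the first LH collection. It fell by 1.89 ± 0.31 in LH (adjusted p = 0.000144) and by 1.41 ± 0.31 in HL (adjusted p = 0.00769). Ccne2, cyclin E2, which drives the kinase CDK2 into S phase, had 16.4, 16.2 and 17.5 CPM in the first LH libraries and 10.7, 6.60, 4.98 and 2.08 CPM in the last. Its fall was 1.31 ± 0.38 in LH (adjusted p = 0.0382), 1.60 ± 0.38 in HL (adjusted p = 0.0217) and 1.40 ± 0.36 in HH (adjusted p = 0.0267).

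Uhrf1 fell by 1.54 ± 0.39 in HL (edgeR adjusted p = 0.0324) and by 1.75 ± 0.41 in LH (adjusted p = 0.00895), from means of 11.5 and 9.62 CPM to 4.24 and 3.06 CPM. Lig1 fell by 0.93 ± 0.18 in HL (adjusted p = 0.00264) and by 0.67 ± 0.19 in LH (adjusted p = 0.0362), from means of 139 and 98.1 CPM to 73.9 and 62.6 CPM. Of the other genes that fell by numbers, Mcm2 (1.21 ± 0.27), Ccne1 (1.51 ± 0.37) and Dut, which removes dUTP (0.80 ± 0.22), did so in LH alone, Chaf1a (1.12 ± 0.28) in HL alone and Pole (1.68 ± 0.44) in HH alone, and whether treatments differed in these slopes is answered below. Mcm3, Mcm7, Rrm1 and Rpa2 fell in HL and HH, and Rfc2 in LH and HH. Slopes were negative in all 3 treatments for 37 members by numbers and for 24 by titles.

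**Figure D3:**
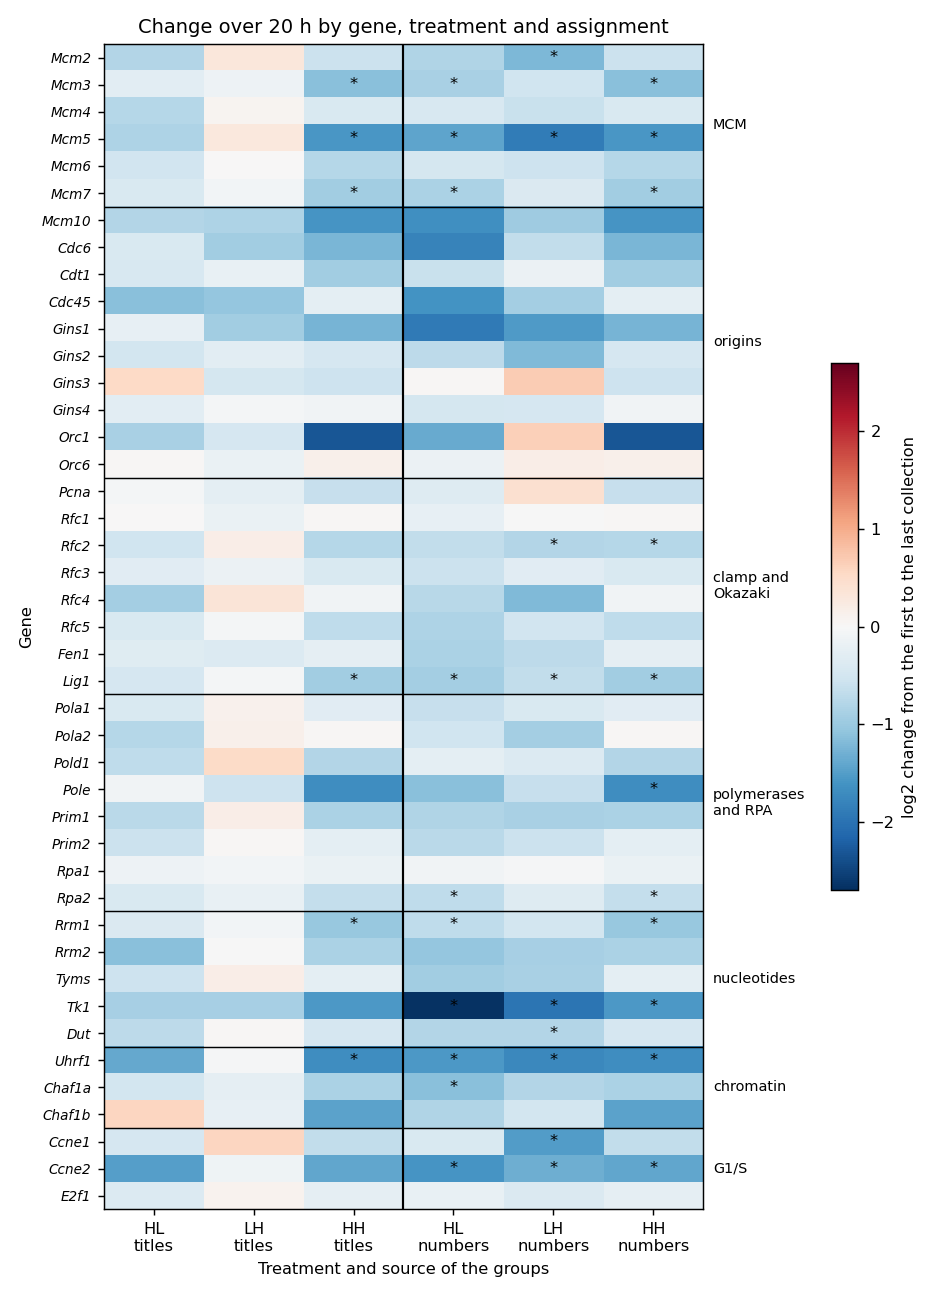
Log2 change from the first to the last collection (colour) of the 43 genes, ordered by role (y axis), in HL, LH and HH by titles and by library numbers (x axis); an asterisk marks an edgeR adjusted p under 0.05. Asterisks stand at 6 genes in HH by titles and at 10, 9 and 11 genes in HL, LH and HH by numbers, all on negative changes.

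Tested for any difference among the 6 collections, members also changed by numbers with Lig1 (edgeR adjusted p = 0.00706), Tk1 (0.0197) and Ccne2 (0.0315) in HL (0.394% of genes called) and Mcm5 (0.000697), Mcm2 (0.0407) and Uhrf1 (0.0421) in LH (1.05%). In HH they were Mcm5 (0.0093), Rrm1 (0.0105), Lig1 (0.0115) and Mcm7 (0.0146), with 0.803% of genes called. Leaving out 1 replicate of the treatment brought these counts from 3 to between 0 and 2 in HL (0 without replicate 2 or 3), from 3 to 1 (Mcm5) in LH whichever replicate was left out, and from 4 to between 0 and 3 in HH (0 without replicate 2). By titles 0 members changed in HL and 0 in LH by this test in edgeR, where 0.301% and 2.93% of genes were called. At an unadjusted p under 0.05 in edgeR there were 15 and 3 members, beside 8.98% and 16.9% of genes. DESeq2 called 2 and 2 members, and its shares of all genes are not given here.

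**Figure D4:**
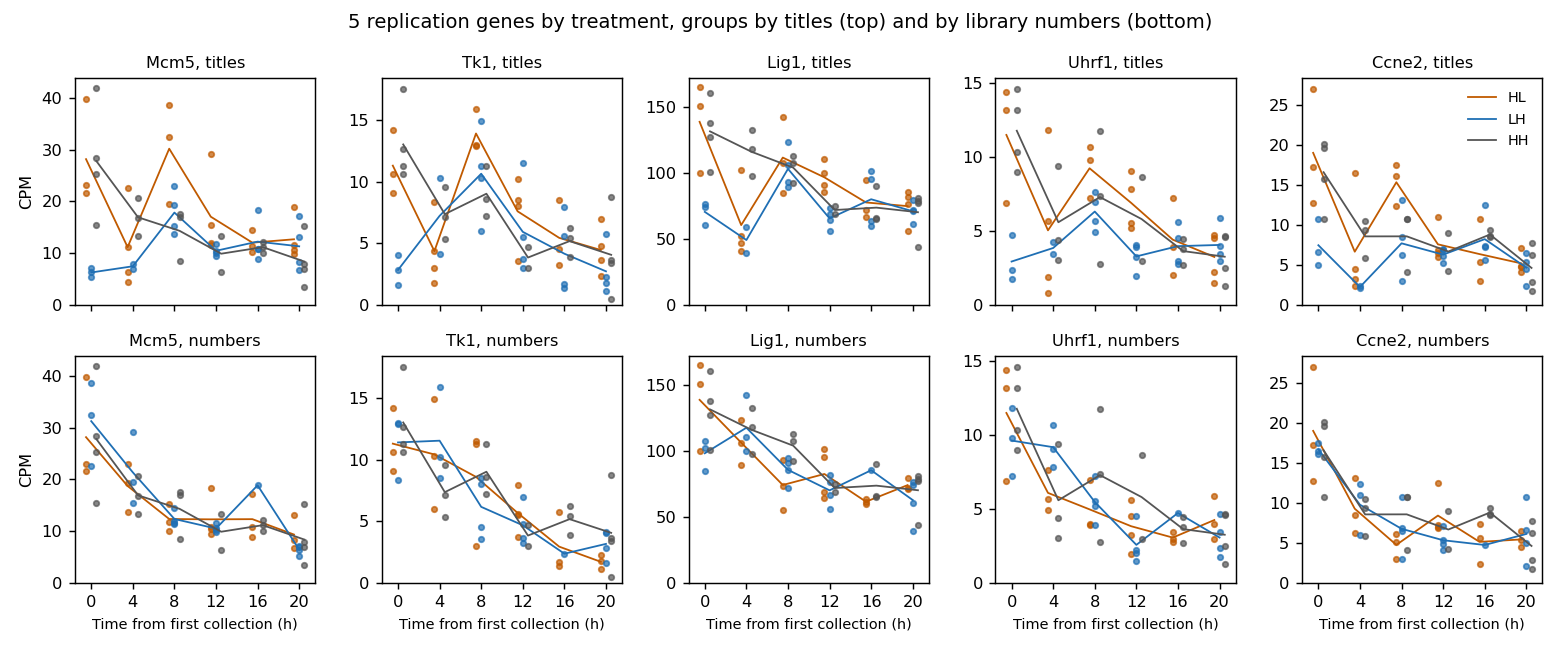
CPM (y axes, each from 0) of Mcm5, Lig1, Uhrf1, Tk1 and Ccne2 in HL, LH and HH against time from the first collection in h (x axis), with groups by titles in the top row and by library numbers in the bottom row; points are libraries, lines join collection means, and the LH library of 104912 counts is left out of the top row. By titles LH starts below the other treatments, as for Mcm5 with a mean of 6.24 CPM, and by numbers it starts beside them with 31.3 CPM.

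Other cell cycle genes were described with the same slope, from lists chosen with results of these data known. In HH by titles, 1 of 55 further replication genes fell, Asf1b, a histone chaperone (2.34 ± 0.55 on the log2 scale, adjusted p = 0.0257), with a list median of -0.37, where 0.301% of all genes fell. Of 50 genes of mitosis 6 fell, with a median of -1.08 that was below that of the replication genes. They were Cdca8, of the chromosomal passenger complex (1.42 ± 0.33), Ncapd2, a condensin subunit (0.74 ± 0.18), Foxm1, a transcription factor of G2/M genes (1.61 ± 0.41), the checkpoint genes Bub1b (2.03 ± 0.52) and Ttk (1.60 ± 0.41), and Nuf2, a kinetochore subunit (2.18 ± 0.56). None of 20 G1 and arrest regulators fell or rose by edgeR, 5 of them had an unadjusted p under 0.05 (11.6% of genes), and the median was 0.11. In HL and LH by titles, no gene of these 3 lists passed the adjusted test of the slope in edgeR or DESeq2. The mitosis medians were then -0.23 and -0.18, the former above that of the replication members (-0.45), with 2 and 0 genes at an unadjusted p under 0.05, all lower (3.29% and 2.5% of genes). The further replication genes had medians of -0.28 and -0.08, with 7 and 1 genes lower at that level. A slope does not cover every change. By edgeR's test for any difference among the 6 collections, 8 of the 50 mitosis genes changed in LH by titles, where 2.93% of genes were called. In HL by titles 0 of them did, where 0.301% of genes were called.

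By numbers 4 of the further replication genes fell in HL, 1 fell in LH and 3 fell in HH, beside 0.538%, 1.08% and 0.727% of all genes, among them Hells, a chromatin remodeler, in all 3 (1.50 ± 0.32, 1.16 ± 0.32 and 1.21 ± 0.28). Of the 50 mitosis genes 15, 14 and 14 fell, beside the same shares of all genes. Of the G1 and arrest regulators Rbl2, a pocket protein, rose in HL (0.54 ± 0.14, adjusted p = 0.047) and Cdk4, the cyclin D kinase, fell in LH (0.50 ± 0.13, adjusted p = 0.0278). Over the 62 libraries, the members' summed CPM had a Pearson correlation of 0.87 with that of the further replication genes, 0.81 with mitosis genes, 0.68 with fibroblast markers, 0.61 with G1 and arrest regulators and 0.02 with total counts. These describe shared libraries and were not tested.

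Mean levels over all collections were compared between treatments with collection as a term. By titles no member differed in edgeR's adjusted test, nor in DESeq2, with 0% of genes called in all 3 comparisons. LH was below HL in 40 of 43 members, 13 of them at an unadjusted p under 0.05 and all 13 lower (3.22% of genes), with a median log2 difference of -0.23 beside 0.00131 over all genes. The smallest p-values belonged to Mcm2 (-0.42 ± 0.14 SE, edgeR adjusted p = 0.542) and Rpa2 (-0.26 ± 0.09, adjusted p = 0.567). HH against HL had a median of -0.08 with 2 members lower at that level (4.23% of genes), Gins4 (-0.22 ± 0.08) and Rpa2 (-0.21 ± 0.09). HH against LH had a median of 0.19 with 4 members higher (2.73% of genes), led by Prim2, the large primase subunit (0.55 ± 0.20) and Dut (0.26 ± 0.11). By numbers the 3 medians were 0.00343, 0.04 and 0.05, again with no member past the adjusted test in either tool (0.0152%, 0.00758% and 0.0227% of genes called). At an unadjusted p under 0.05 there were 4, 2 and 3 members, beside 7.63%, 3.62% and 10.2% of genes.

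At the first collection by titles, 41 of 43 members were lower in LH than in HL with a median log2 difference of -0.80, 23 of them at an unadjusted p under 0.05 (4.06% of genes), and 42 were higher in HH than in LH with a median of 0.85. Mcm5 passed the adjusted test in both comparisons, with 7.02, 6.43 and 5.27 CPM in LH, 23.1, 39.8 and 21.7 CPM in HL and 28.5, 25.4, 15.5 and 41.9 CPM in HH, so that LH did not overlap either. LH was lower than HL by -2.17 ± 0.47 on the log2 scale (edgeR adjusted p = 0.0276, 0.0677% of genes lower) and HH higher than LH by 2.13 ± 0.46 (adjusted p = 0.0167, 0.158% of genes higher). Both calls ended without LH replicate 2, 3 or 4, the first also without HL replicate 2 or 3 and the second without HH replicate 4. In HH against HL 0 members differed at any collection in edgeR, with 2 by DESeq2, up to 5 by edgeR when 1 replicate was left out, and 18 at an unadjusted p under 0.05 in at least 1 collection, where 0.767% of genes were called and 38.8% had such an unadjusted p.

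**Figure D5:**
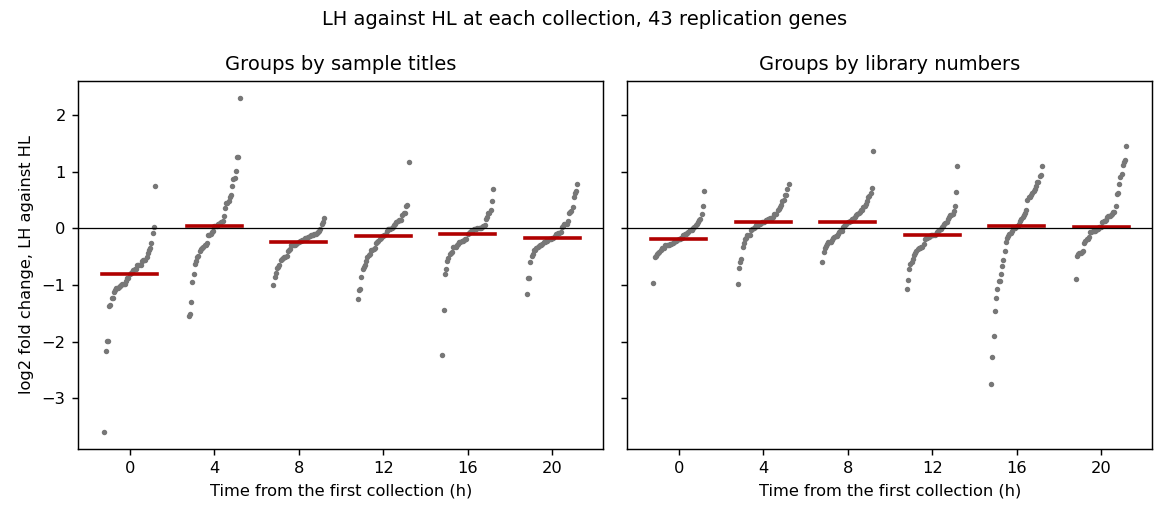
Log2 fold change of LH against HL (y axis) for the 43 genes at each collection, in h from the first (x axis), by titles on the left and by library numbers on the right; each point is a gene and each red line the median. By titles the first collection lies almost wholly below 0 with a median of -0.80, and by numbers its median is -0.19.

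At the second collection by titles, members differed between HH and LH as well, with Rfc2, a clamp loader subunit, higher in HH (1.18 ± 0.32, edgeR adjusted p = 0.0224, 3.02% of genes higher) and Cdt1, the licensing factor, lower (-1.25 ± 0.41, adjusted p = 0.0496, 4.10% lower). That LH group included the library of 104912 counts, in which Mcm5 stood at 85.8 CPM from 9 counts. Without it, Rfc2 (1.19 ± 0.34, adjusted p = 0.0217), Lig1 (1.19 ± 0.28, adjusted p = 0.00668) and Rrm1 (0.83 ± 0.25, adjusted p = 0.0302) were higher in HH (4.25% of genes). Pcna alone was lower (-1.37 ± 0.43, adjusted p = 0.0338), a smaller share than the 5.64% of all genes, and Cdt1 no longer passed. Rfc2 also no longer passed without LH replicate 1 or HH replicate 1 or 3, and Cdt1 failed whichever replicate of either treatment was left out. Without the library of 104912 counts, Mcm3 also passed at the first collection (1.10 ± 0.27, adjusted p = 0.0494, 0.279% of genes higher). By numbers 0 members differed at any single collection in edgeR and 0 in DESeq2, where edgeR called 0.796% of genes in LH against HL, 0% in HH against HL and 1.2% in HH against LH. At the first collection 1, 2 and 0 members had an unadjusted p under 0.05 in these comparisons, beside 1.64%, 2.86% and 2.21% of genes.

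Whether the decline itself differed between treatments was tested as a difference of slopes. No member passed the adjusted test in edgeR or DESeq2 in any pair by titles or by numbers, with 0.015%, 0.015% and 0.00752% of genes called by titles and 0% by numbers. By titles 8 members in LH against HL, 5 in HH against HL and 13 in HH against LH had an unadjusted p under 0.05 (6.15%, 6.52% and 7.91% of genes), and by numbers 1, 0 and 4 (5.61%, 3.27% and 8.61%). Rrm1 by titles had a slope lower in HH than in LH by -0.96 ± 0.25 on the log2 scale (adjusted p = 0.245), and -0.65 ± 0.25 in HH against HL (adjusted p = 0.711).

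A 24 h rhythm was sought in each treatment with JTK_CYCLE, which ranks the values against cosine curves and takes P from an exact permutation null, at P under 0.01. In HH 4 members passed, which were Lig1 (exact P = 0.00253, peak at 2 h from the first collection), Fen1, the flap endonuclease of Okazaki processing (P = 0.00562, 0 h), Gins4 (P = 0.00757, 0 h) and Rfc2 (P = 0.00867, 4 h), beside 1.22% of all genes. Each peaked near the start of the series. Leaving out 1 HH replicate brought them to between 0 and 1 (Gins4 without replicate 1, Lig1 without replicate 3, and none of the 4 without replicate 2 or 4), and Fen1 and Lig1 passed with TMM-scaled CPM, both again with the first run alone, and Rfc2 with the second. For Fen1 the HH means were 10.1, 5.67, 6.38, 2.88, 5.54 and 8.16 CPM, and for Gins4 27.7, 22.2, 23.1, 20.0, 22.7 and 24.3 CPM, so that both were higher again at the last collection than at the fourth, unlike Lig1 and Rfc2. With 20 h sampled, less than 1 period was covered.

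In HL and LH by titles no member passed JTK_CYCLE (0.466% and 0.933% of genes did). There was 1 member each at P under 0.05 (2.68% and 3.83% of genes) and 1 each by a cosine fit in edgeR at P under 0.01 (1.12% and 3.27% of genes). The smallest values were those of Rfc4 (exact P = 0.042), Mcm4 (0.129) and Mcm2 (0.141) in HL and of Tk1 (0.0428), Mcm7 (0.0618) and Rfc2 (0.168) in LH. By numbers Uhrf1 (exact P = 0.00206, peak at 2 h) and Tk1 (P = 0.00241, 4 h) passed in LH, beside 1.31% of genes, with 0 to 2 members left without 1 LH replicate. Of all members 16 there had P under 0.05 (4.47% of genes), all with a peak at 2 or 4 h. In HL by numbers none passed (1.03% of genes did), with Uhrf1 (exact P = 0.0102), Tk1 (0.0156) and Mcm7 (0.0262) the nearest. With collections at equal height of the cosine curve taken as 1 group in the exact null, Uhrf1 and Tk1 passed in HL and 7 members in LH by numbers. Shares of all genes under that null are not given here, so these member counts have no comparison with all genes. No JTK_CYCLE result of a member had an adjusted p under 0.05 in any group. Between treatments, 0 members differed in rhythm by edgeR's adjusted test and 0 by DESeq2. By titles 2, 2 and 11 members had an unadjusted p under 0.05 for LH against HL, HH against HL and HH against LH, beside 7.21%, 9.91% and 9.61% of genes, and 0.0677%, 0.015% and 0.0527% of genes were called. By numbers 0, 0 and 2 members had one, beside 3.01%, 5.48% and 6.87% of genes, and 0.00758%, 0% and 0% of genes were called.

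Whether counting used strand is not given in the sources used here, and 11 members have another gene within the last 500 bp, where 3′ reads fall. Mcm7 is among them, as its end overlaps that of Cops6 on the other strand (mean 84.6 CPM), and so is Ccne2 with Ints8 (12.8 CPM). No other annotated gene reached the last 500 bp of Rrm1, Mcm3, Mcm5, Lig1 or Uhrf1. The genes lie at chr7:102441695-102469771 (Rrm1), chr5:138164583-138172422 (Mcm7), chr1:20802968-20820312 (Mcm3), chr8:75109569-75128439 (Mcm5), chr7:13277283-13311433 (Lig1) and chr17:56303321-56323486 (Uhrf1) in GRCm38.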

How the data were processed

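The 62 libraries of mouse Per2::Luc fibroblasts were made by 3′DGE, and 59 were sequenced in 2 runs. Per the labels, the reads were aligned to mm10 with STAR 2.6.0a and counted with HTSeq 0.9.1 (submitters' processing notes), and the authors deposited raw counts per gene and run without normalization. The annotation release and any use of strand are not stated there. Runs were summed. Reads on no feature, 18.4% to 29.1% of a run, were left out. Symbols and positions came from GENCODE M21 (GRCm38) for 30934 of 31053 identifiers, and promoters from RefSeq. No pair of libraries agreed within sampling noise.

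Genes with at least 1 CPM in 3 libraries were tested with edgeR 4.0.16 (quasi-likelihood, TMM, 1 model for all libraries, Benjamini-Hochberg over all genes at 0.05) and with JTK_CYCLE, rewritten with its exact null (unadjusted P under 0.01, phases of 2 h). DESeq2 1.42.0 was an alternative. At 10 CPM, a gene yields about 1 count in the shallowest library (104912 counts). On simulated counts of 200 changed among 13292 genes, edgeR found 94 slopes in HL with a median log2 change of -0.95, with 2 false calls. Values are given for members past an adjusted edgeR test, the 3 smallest JTK P per treatment, the 2 smallest P per comparison of levels, the highest of each role and Lig1, and other members were named after their values were seen. The members and lists were chosen with earlier results of these data known.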

Additional observations from a re-analysis of the deposited data

Results flagged for a closer look

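In groups of 4 libraries, the 6 genes that fell in HH, Tk1, Ccne2 and the summed level were searched for a library far from the other 3 by Dixon's ratio, and 10 of 117 groups held one, where chance gives about 1 in 20. By titles, Lig1 was at 43.4 CPM in HH collection 6 replicate 3 (others 77.1 to 80.9 CPM), the summed CPM of the members at 1029 in HL collection 2 replicate 4 (others 633 to 693), Ccne2 at 16.4 CPM in the same library (others 2.35 to 4.50 CPM) and at 10.9 CPM in HL collection 4 replicate 1 (others 6.02 to 6.85 CPM), and Rrm1 at 58.9 CPM in LH collection 5 replicate 1 (others 38.1 to 39.8 CPM). By library numbers, HL collection 4 replicate 3 stood above its group in Rrm1 at 58.9 CPM (others 37.2 to 39.8 CPM), Mcm5 at 18.3 CPM (others 9.50 to 10.8 CPM) and Ccne2 at 12.5 CPM (others 6.89 to 7.27 CPM). That library is the one that titles name LH collection 5 replicate 1, so that its Rrm1 value counts under both assignments among the 10. Mcm5 was at 14.5 CPM in LH collection 3 replicate 4 (others 11.4 to 11.9 CPM) and Mcm7 at 87.5 CPM in LH collection 4 replicate 2 (others 107 to 110 CPM).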

How the results depend on the processing

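Numbers of members past each test are compared here with those reported by titles, in the order HL, LH, HH, or LH against HL, HH against HL, HH against LH. By library numbers, members with a falling slope were 10, 9 and 11 in place of 0, 0 and 6, members that changed over the collections 3, 3 and 4 in place of 0, 0 and 1, JTK_CYCLE gave 2 in LH in place of 0, and single collections gave 0 in LH against HL in place of 1 and 0 in HH against LH in place of 3. With DESeq2 by titles, 2, 2 and 5 changed over the collections and 2 (HH against HL) and 11 (HH against LH) differed at single collections. With DESeq2 by numbers, slopes were 11, 10 and 12, changes 6, 6 and 8, and single collections 0 and 0 where titles gave 1 and 3. Without a filter on low counts, changes were 5, 3 and 9 and single collections 7, 4 and 11. With RLE scaling, filterByExpr, no scaling or the first run alone, changes in HH were 2 each, and single collections were 6 in HH against LH with RLE scaling and 2 in LH against HL with the first run. The second run alone gave 1 change in HL and 2 in HH and 9 differences in HH against LH, and by numbers slopes of 7, 9 and 11, changes of 1, 1 and 5, and 0 and 0 differences at single collections where titles gave 1 and 3. Without the library of 104912 counts, JTK_CYCLE gave 1 in LH, 1 member changed in HL, and 6 differed at single collections in HH against LH. In HH, JTK_CYCLE gave 2 with TMM-scaled CPM, 2 with either run alone, 1 at an amplitude over 10 CPM and 0 after adjustment in place of 4, and in LH 1 with the second run alone. A cosine fit in edgeR gave 1 in HL and 1 in LH, JTK P under 0.05 gave 1 in HL and 1 in LH, and a null with equal reference heights as 1 group gave 2 in HL and 7 in LH by numbers. At an unadjusted p under 0.05, changes were 15, 3 and 18, slopes 14 (HL) and 24 (HH), levels 13, 2 and 4, rhythm differences 2, 2 and 11, single collections 28, 18 and 26 and slope differences 8, 5 and 13, and by numbers slopes 26, 23 and 27 and slope differences 1 (LH against HL) and 4 (HH against LH). Without the collections whose hours conflict (collection 2, and LH collections 3 and 4), slopes were 5 in HL by titles, where the median in LH turned to 0.13, and 6 in HL and 2 in LH by numbers. Most of these counts are given without the share of all genes under the same setting. They show how the member counts moved, and make no comparison of the members with all genes. For single collections at the unadjusted level, the share of all genes given above for HH against HL was itself large. The cause of these differences was not tested. The slopes, their differences, the tied null, the fits without the collections whose hours conflict and the repeats of other alternatives by numbers were added after seeing the data.

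By titles same-numbered replicates did not pair the samples. The median correlation of their deviations was 0.00420 (70 of 452 pairs over 0.1), beside 0.00125 for replicates of other numbers. By library numbers it was 0.0822 (158 of 365 pairs over 0.1), beside -0.0201 for replicates of other numbers. Whether part of the samples was paired there was not tested, and the main fits by library numbers used no block. With the replicate number as a block, no count by titles moved by over 1.5 times. By numbers the block gave slopes of 13, 10 and 13, changes of 7, 6 and 8, and 0 and 1 members at single collections where titles gave 1 and 3.

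Leaving out 1 replicate of the same treatment at a time, the number of members with a falling slope was 0 in HL, 0 in LH and 1 to 2 in HH by titles, and 1 to 8, 3 to 6 and 6 to 7 by numbers. Leaving out 1 of another treatment, it was 0, 0 and 5 to 6 by titles and 7 to 12, 7 to 10 and 9 to 12 by numbers. Leaving out replicates of the treatments compared, members that changed over the collections numbered 0 to 3 in HL, 0 in LH and 0 to 1 in HH by titles, and 0 to 2, 1 and 0 to 3 by numbers. JTK_CYCLE gave 0 to 1 in HL, 0 in LH and 0 to 1 in HH by titles, and 0 to 2, 0 to 2 and 0 to 1 by numbers, and single collections gave 0 to 2, 0 to 5 and 1 to 5 by titles, and 0, 0 and 0 to 2 by numbers. Leaving out any HH replicate ended at least 3 of the 4 HH rhythms and 4 of the 6 HH slopes by titles. No level, rhythm or slope difference reached an adjusted p under 0.05 in any of these fits. Depth limits sparse members such as Orc1, which reached 1 CPM in 8 of the 62 libraries.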
